A study of Mus musculus with 9 samples.

Results

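The mitochondrial ribosomal protein genes are the nuclear genes with Mrps symbols (small subunit) and Mrpl symbols (large subunit). They were chosen by symbol alone: every protein-coding gene whose symbol is Mrps or Mrpl followed by a digit, with pseudogenes left out and a deposited value of at least 1 in at least 3 libraries. All 78 annotated genes of this kind were in the table of 14461 genes and passed that minimum, 29 with Mrps and 49 with Mrpl symbols, among 13771 genes tested. RNA had been sequenced from mouse bone marrow LSK cells (lineage-negative, Sca-1+, c-Kit+), which hold the blood stem cells and early progenitors. The mice were parabionts, animals joined by surgery so that they exchange blood, and the stated question concerns LSK cells that have travelled to the marrow of an irradiated partner. Each of the 3 groups had 3 libraries. Circulating LSK and irradiated LSK cells were labelled with the strain C57BL/6, and endogenous LSK cells with the strain B6SJL CD45.1, so strain and group cannot be told apart in comparisons with endogenous cells. Whether the strain label of circulating cells names the animal they arose in or the animal they were sorted from was not tested. No genotype, age, radiation dose or time is named in the labels. Same-numbered circulating and irradiated samples share a code in their titles, and endogenous samples have another one. A further code in the titles is shared by circulating and endogenous samples and differs in irradiated samples. The labels do not explain these codes. Nothing in them ties replicates to different animals, so the p-values reflect only how these samples vary, which may be technical.

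Mitochondria keep a small genome of their own, which encodes core subunits of the respiratory chain, and they translate it on a ribosome that differs from the one in the cytosol. The ribosomal RNAs of this mitoribosome are encoded in mitochondrial DNA, while all of its proteins are encoded in the nucleus, made in the cytosol and imported. The small subunit decodes the messenger RNA, and the large subunit joins amino acids and releases the chain at the inner membrane. Many mitoribosomal proteins have a counterpart in the bacterial ribosome, and others are found only in mitochondria. Resting blood stem cells are known for low mitochondrial activity, which rises when they divide or differentiate.

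Values are the authors' deposited normalised signal, in essence estimated read counts divided by a scaled library size, and changes are differences of log2(value + 1) between group means, which understates changes of low genes. Recovered depth was 14065855 to 27012345 estimated counts per library, lowest in circulating replicate 2. Transcripts of the sorting gate were present in all groups, although Kit fell from 879 ± 137 (SD, n = 3) in endogenous to 379 ± 45.1 (SD, n = 3) in circulating cells (limma, Benjamini-Hochberg adjusted p = 0.00257). The sum of Ly6a, Kit, Cd34, Flt3 and Ptprc ran from 3845 to 4208 in endogenous libraries. It was 2064 to 3266 in circulating and 2706 to 3013 in irradiated libraries. All 5 had a fold change below 0 in both groups against endogenous cells, and Kit alone was called, in circulating cells. The circulating libraries varied most among themselves, with a median SD over genes of 0.38 log2 units, against 0.26 for endogenous and 0.21 for irradiated libraries. The T cell marker sum (Cd3d, Cd3e, Cd3g, Cd4, Cd8a) was 84.7 in circulating replicate 2 and 2.58 to 15.4 in the other 8 libraries.

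Circulating LSK cells carried more mitochondrial ribosomal protein transcript than endogenous LSK cells, in both subunits. The summed value of the 78 genes was 6014, 6130 and 7273 in the circulating libraries, 6155, 6042 and 6319 in the irradiated libraries, and 4642, 5019 and 4842 in the endogenous libraries. Each circulating and irradiated library lay above each endogenous library. As a share of the summed deposited signal they made up 0.606% ± 0.0316 (SD, n = 3) of circulating, 0.608% ± 0.0161 of irradiated and 0.523% ± 0.0159 of endogenous libraries. In bulk samples, fewer cells of a type and less RNA per cell cannot be told apart. Between circulating and endogenous cells, 75 of the 78 genes had a fold change above 0 and their median log2 fold change was 0.39, against -0.04 over all tested genes. Single genes passed the test less widely. Of the 78, 10 rose and 0 fell at a limma adjusted p under 0.05, where 5.33% of all tested genes rose and 3.3% fell, 8.63% in all. At an unadjusted p under 0.05 there were 46 of 78, against 26.7% of all tested genes. In 50 of 78 genes all 3 circulating values lay above all 3 endogenous values, and in 0 of 78 below, where the shares of all tested genes were 14.6% and 12.9%. Under scaling by library size alone the 50 became 22, while the 14.6% and 12.9% of all tested genes hold for the deposited scaling only.

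**Figure D1:**
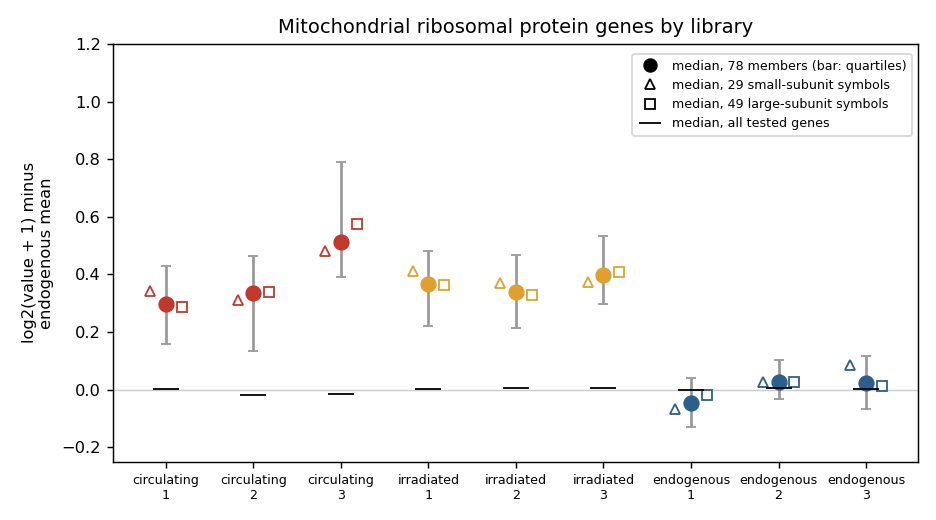
Median of the 78 mitochondrial ribosomal protein genes in each library, as log2(value + 1) minus each gene's endogenous mean (circles, bars from the lower to the upper quartile over genes), with the medians of the 29 Mrps genes (triangles), the 49 Mrpl genes (squares) and all tested genes (dashes). The circulating medians are 0.30, 0.33 and 0.51 and the irradiated medians 0.34 to 0.40, while the endogenous medians and those of all tested genes lie near 0.

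The plot of medians by library shows that circulating replicate 3 stood highest: it held the highest of the 9 values in 49 of the 78 genes. The lowest of the 9 values was in an endogenous library for 69 genes. The median SD of these genes between libraries of a group was 0.21 log2 units for circulating, 0.13 for endogenous and 0.094 for irradiated cells, and the fit used 1 pooled estimate of spread. The number called in circulating against endogenous cells depended on single libraries. Leaving out circulating replicate 1 gave 20 and leaving out circulating replicate 3 gave 3. Of all 13771 tested genes, 2224 and 532 were then called in either direction, against 1189 in the main fit. Of the 78 genes, 3, 4 and 3 were called when irradiated replicate 1, 2 or 3 was dropped (all tested genes: 622, 698 and 645). When endogenous replicate 1, 2 or 3 was dropped, 0, 4 and 3 were called (all tested genes without endogenous replicate 1: 257). The counts of 4 and 3 are given without those of all tested genes and cannot be read alone. The fit that gave 0 had 30 genes at an unadjusted limma p under 0.05. With sample weights 2 were called (all tested genes rising: 2.47%). With only these groups in the limma fit 0 were called (all tested genes rising: 1.15%), with 33 at an unadjusted p under 0.05. Voom weights gave 8, and 571 of all 13771 tested genes then rose. The median log2 fold change stayed between 0.34 and 0.46 when single libraries were left out. Scaling by library size alone moved the median of all tested genes to -0.22 and that of the 78 genes to 0.19, so the difference between them was 0.41, against 0.43 with the deposited scaling. It left 2 genes called, Mrpl18 and Mrpl33, where 2.47% of all tested genes rose.

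Of the 10 genes that rose, 8 have Mrpl symbols, as do 49 of all 78 genes. The medians of the subunits are compared below. Mrpl33 (chromosome 5, 31596935 to 31664384, plus strand, GRCm38), one of the small proteins of the large subunit with a bacterial counterpart, measured 169, 151 and 195 in circulating, 159.6, 145 and 144 in irradiated, and 85.5, 117 and 102 in endogenous libraries. Its lowest circulating value exceeded its highest endogenous value, and the log2 fold change was 0.75 (SE 0.15, limma adjusted p = 0.0174). Mrpl18 (chromosome 17, 12911349 to 12916345, minus strand) encodes the counterpart of a bacterial protein that binds 5S RNA. It measured 169, 175 and 219 in circulating, 164, 167 and 168 in irradiated, and 114, 119.9 and 110.1 in endogenous libraries. The groups did not overlap, and the log2 fold change of Mrpl18 was 0.70 (SE 0.13, limma adjusted p = 0.0132). Of its 1398 exon bases, 141 are shared with Tcp1 on the other strand, and the library chemistry does not mark strand. Mrpl18 and Mrpl33 were the genes called most often, each under 16 of the 18 other settings tried, with limma adjusted p from 0.00661 to 0.0638 for Mrpl18 and from 0.0126 to 0.0687 for Mrpl33. The other calls held less often: Mrpl15 under 13 of the 18 settings, Mrpl22 under 9, Mrpl37 and Mrpl51 under 8, Mrps27 under 6, Mrps10 under 5, and Mrpl28 and Mrpl57 under 4.

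Mrpl22 (chromosome 11, 58171661 to 58179565, plus strand), whose bacterial counterpart lines the tunnel through which the new chain leaves, had the largest log2 fold change of all 78 genes, 0.78 (SE 0.19, limma adjusted p = 0.0315). Its values were 71.7, 63.4 and 90.8 in circulating, 60.5, 61.7 and 62.9 in irradiated, and 35.6, 45.1 and 49.7 in endogenous libraries. The 3 circulating values lay above the 3 irradiated values, and those above the 3 endogenous values. Mrpl15 (chromosome 1, 4773206 to 4785739, minus strand) encodes another protein of bacterial descent. It measured 143, 153 and 143.5 in circulating, 112, 110.4 and 128 in irradiated, and 93.5, 103 and 91.5 in endogenous libraries. No pair of groups overlapped, and the log2 fold change of Mrpl15 against endogenous cells was 0.61 (SE 0.13, limma adjusted p = 0.0200). Mrpl28 (chromosome 17, 26123500 to 26126613, plus strand) measured 142, 147 and 185 in circulating, 159, 134 and 152 in irradiated, and 112, 109.8 and 107 in endogenous libraries. Its endogenous libraries were nearly level and lay below all others, at a log2 fold change of 0.51 for circulating cells (SE 0.14, limma adjusted p = 0.0448).

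The other 3 large subunit genes that rose, Mrpl37, Mrpl51 and Mrpl57, encode proteins found in mitochondrial and not in bacterial ribosomes. Mrpl57 (chromosome 14, 57826234 to 57829296, plus strand) measured 60.8, 87.4 and 93.9 in circulating, 77.6, 75.8 and 69.1 in irradiated, and 49.1, 49.4 and 50.7 in endogenous libraries. Circulating replicate 1 was the lowest of the 6 values above the endogenous ones, and the log2 fold change was 0.66 (SE 0.18, limma adjusted p = 0.0445). Mrpl37 (chromosome 4, 107055874 to 107066868, minus strand) measured 134, 107 and 147 in circulating, 141, 101.5 and 134 in irradiated, and 91.5, 77.4 and 74.2 in endogenous libraries. Replicate 2 was the lowest in both of the higher groups, and the log2 fold change of circulating cells was 0.66 (SE 0.17, limma adjusted p = 0.0425). Mrpl51 (chromosome 6, 125191801 to 125196269, plus strand) measured 106.5, 110.6 and 154 in circulating, 114, 103 and 113 in irradiated, and 72.9, 84.2 and 79.4 in endogenous libraries. Circulating replicate 3 stood above every other library, and the log2 fold change was 0.63 (SE 0.16, limma adjusted p = 0.0396).

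From the small subunit, Mrps10 and Mrps27 rose. Mrps10 (chromosome 17, 47368887 to 47381417, plus strand), the counterpart of bacterial protein S10 in the head of the small subunit, measured 111, 107 and 117 in circulating, 93.9, 103.5 and 105 in irradiated, and 83.8, 81.4 and 69.4 in endogenous libraries. The 3 groups were stacked without overlap, and circulating cells stood 0.51 above endogenous cells on the log2 scale (SE 0.14, limma adjusted p = 0.0425). Mrps27 (chromosome 13, 99344786 to 99415562, plus strand) encodes an RNA-binding protein of the pentatricopeptide repeat family. It measured 80.1, 84.5 and 96.3 in circulating, 71.8, 57.5 and 66.8 in irradiated, and 42.3, 70.5 and 45.3 in endogenous libraries. Endogenous replicate 2 lay within the irradiated range but below all circulating values, and the log2 fold change of Mrps27 was 0.75 (SE 0.21, limma adjusted p = 0.0462). Of its 2093 exon bases, 506 are shared with the antisense gene 6430562O15Rik, and the library chemistry does not mark strand, so reads of the pair cannot be told apart. The 10 genes that rose had a median mean value of 108, against 64.5 for the other 68, and a median SE of 0.16, against 0.17.

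**Figure D2:**
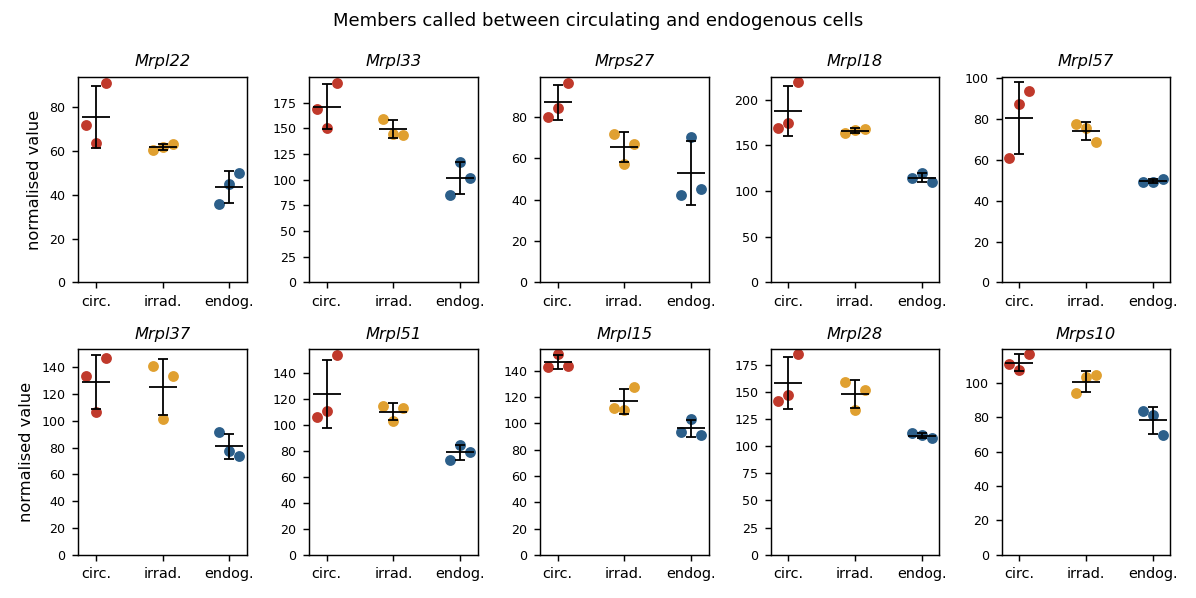
Deposited normalised value of the 10 mitochondrial ribosomal protein genes that rose in circulating against endogenous cells, on axes that start at 0, with 1 point per library and the group mean ± SD (n = 3) as bars. In each panel the 3 circulating points lie above the 3 endogenous points, and the irradiated points lie above the endogenous ones in all panels except Mrps27.

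Promoter sequence is given for 4 of these genes because the 78 genes stood higher together, and sequences near their starts can be compared. RefSeq promoters (GRCm38.p6, 250 bases before to 50 bases after each start) were matched for 69 of the 78 genes, with 75 promoters, and Mrps28, Mrps34, Mrps35, Mrpl4, Mrpl13, Mrpl15, Mrpl19, Mrpl38 and Mrpl54 were not matched. The letters CCGGAAG, a core bound by ETS factors such as GABP, were found on either strand in 34.7% of the 75 promoters, in 17.7% of 12629 promoters of tested genes and in 8.86% of all 32851 promoters. The NRF1 motif (GCGCA, any base, then GCGC) was found in 17.3%, 9.87% and 4.6% in the same order, and the YY1 motif AANATGGCG in 14.7%, 5.03% and 2.38%. At least 1 of these 3 motifs was in 56.0%, 28.8% and 14.2%. The letters CCAAT were in 40.0%, 37.9% and 37.4%, and the E-box CACGTG in 9.33%, 10% and 7.15%. No match of one motif shared bases with a match of another in the 75 promoters. Median GC content was 58.7% in the 75 promoters and 60.3% in promoters of tested genes. Of the 9 promoters of genes that rose, 6 held CCGGAAG, 1 held the NRF1 motif and 2 held the YY1 motif. A match is a description of these letters and not a binding site. The runs below are the 120 bases before the start of the genes that rose and have such a match wholly within those bases, read 5′ to 3′ on the plus strand, with the match in capitals.
Mrpl22 (chr11:58171544-58171663, ETS letters): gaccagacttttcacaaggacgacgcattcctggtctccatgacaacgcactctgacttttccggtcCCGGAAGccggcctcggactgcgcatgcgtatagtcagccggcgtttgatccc
Mrpl51 (chr6:125192080-125192199, ETS letters): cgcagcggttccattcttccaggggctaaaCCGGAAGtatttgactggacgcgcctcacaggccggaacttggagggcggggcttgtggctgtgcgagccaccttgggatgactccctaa
Mrps27 (chr13:99344666-99344785, ETS letters on the other strand): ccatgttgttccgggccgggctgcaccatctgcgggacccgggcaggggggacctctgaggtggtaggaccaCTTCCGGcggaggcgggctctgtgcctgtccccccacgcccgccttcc
Mrpl57 (chr14:57826119-57826238, NRF1 letters): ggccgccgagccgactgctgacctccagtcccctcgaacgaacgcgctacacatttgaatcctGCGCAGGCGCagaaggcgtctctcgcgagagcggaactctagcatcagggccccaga
The match begins 53 bases before the start in Mrpl22, 48 in Mrps27, 57 in Mrpl57 and 90 in Mrpl51. In Mrps27 and Mrpl37 the YY1 letters AAGATGGCG lie after the start, at base 15 and base 27.

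Several genes with a special place in the mitoribosome did not pass the test. Mrpl12, a stalk protein that also binds the mitochondrial RNA polymerase, measured 130.3, 105 and 204 in circulating, 113.5, 117 and 132 in irradiated, and 90.8, 80.0 and 81.7 in endogenous libraries. The circulating libraries differed nearly as much among themselves as from the endogenous ones, and the log2 fold change of 0.74 had an SE of 0.21 and a limma adjusted p of 0.0512. Mrpl58, a peptidyl-tRNA hydrolase built into the large subunit that frees stalled chains, measured 38.7, 40.0 and 60.4 in circulating and 29.6, 25.2 and 31.7 in endogenous libraries (log2 fold change 0.64, SE 0.22, limma adjusted p = 0.0916).

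Relatives of 1 bacterial protein are encoded by the 3 Mrps18 genes and occupy separate places. Mrps18b and Mrps18c lie in the small subunit, while the product of Mrps18a belongs to the large one. Mrps18c measured 78.6, 98.3 and 91.7 in circulating against 56.9, 61.1 and 67.7 in endogenous libraries, with a log2 fold change of 0.52 (SE 0.15, limma adjusted p = 0.0518). Mrps18b measured 78.1, 89.4 and 115 against 64.8, 69.6 and 67.1 (log2 fold change 0.46, SE 0.17). Mrps18a had the smallest difference of the 3, with 57.1, 67.0 and 78.1 against 53.3, 54.9 and 56.8 (log2 fold change 0.28, SE 0.16). In each of the 3 genes the circulating values lay above the endogenous ones. Mrps36, whose product is better known as a subunit of the oxoglutarate dehydrogenase complex than as a ribosomal protein, measured 51.1, 51.2 and 70.4 against 30.02, 36.6 and 49.6 (log2 fold change 0.57, SE 0.22, limma adjusted p = 0.120).

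A fold change below 0 between circulating and endogenous cells was seen in 3 genes, none of which passed the test. Mrps30, whose product lies in the large subunit despite its name, was the lowest of the 78 in level and measured 11.8, 4.54 and 23.8 in circulating, 15.7, 22.9 and 21.9 in irradiated, and 13.7, 15.7 and 24.6 in endogenous libraries. Circulating replicate 2 lay far below the rest and circulating replicate 3 among the highest, so the log2 fold change of -0.61 had an SE of 0.47 (limma adjusted p = 0.431). Without single libraries it ran from -1.13 to -0.05. Of its 6666 exon bases, 623 are shared with B430218F22Rik on the other strand. Mrps6 measured 38.4, 27.1 and 35.4 in circulating and 40.8, 31.5 and 40.3 in endogenous libraries, and Mrpl52 30.1, 30.5 and 27.5 against 27.4, 28.1 and 33.8. Their log2 fold changes were -0.16 (SE 0.22) and -0.01 (SE 0.19), within 1 SE of 0. Of the 1533 exon bases of Mrps6, 305 are shared with Gm49711 or Slc5a3.

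**Figure D3:**
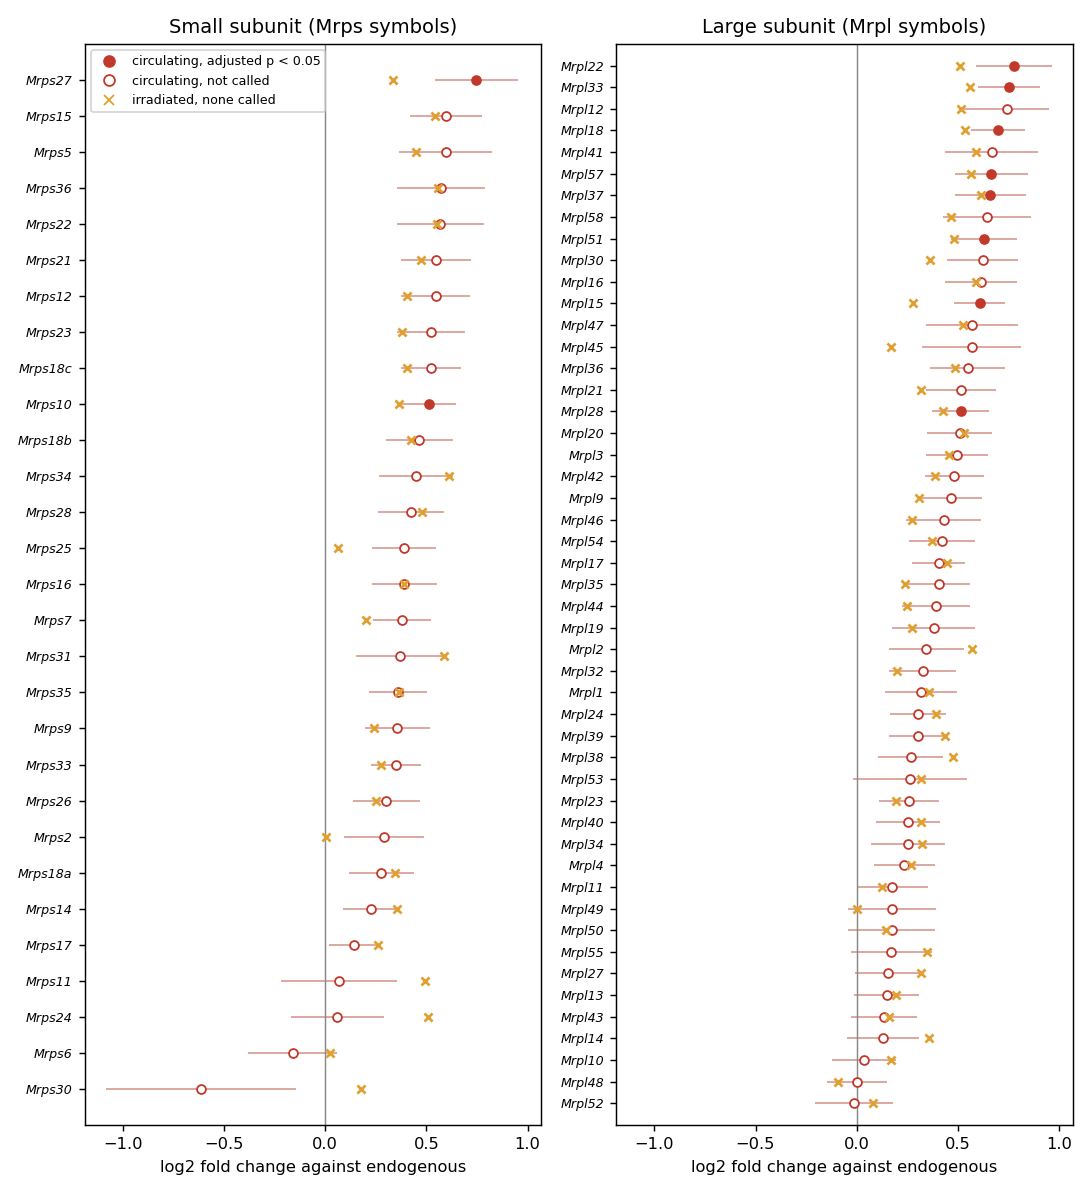
Log2 fold change against endogenous cells of each Mrps gene (left) and Mrpl gene (right), in circulating cells (circles with bars of 1 SE, filled where the limma adjusted p is under 0.05) and in irradiated cells (crosses, none called). Circulating values run from -0.61 in Mrps30 to 0.78 in Mrpl22, and 75 of 78 circles and 76 of 78 crosses lie above 0.

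Irradiated LSK cells also had higher values of these genes than endogenous LSK cells in most genes, but no single gene passed the test. The comparison shares its endogenous libraries with the one above. The median log2 fold change of the 78 genes was 0.36, against -0.01 over all tested genes, and 76 of 78 were above 0. With limma 0 of 78 were called, where 0.472% of all tested genes rose and 0.131% fell, 0.603% in all, and voom weights also gave 0. At an unadjusted p under 0.05 there were 38 of 78, against 14.9% of all tested genes. In 58 of 78 genes the irradiated values lay wholly above the endogenous values and in 0 wholly below, against 15.2% and 12.5% of all tested genes. This count of calls rested on the pooled spread: with sample weights 13 genes were called (all tested genes rising: 4.47%), and with only these groups in the fit 8 (3.55%). Without circulating replicate 3, 1 gene was called, Mrpl18, and without any other single library 0. Shares of all tested genes are not given for these fits without single libraries.

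The 4 largest fold changes in irradiated cells were in Mrpl37, Mrps34, Mrpl16 and Mrps31. Mrpl37, with the values given above, had a log2 fold change of 0.62 (SE 0.17, limma adjusted p = 0.134). Mrps34, a protein of the small subunit found only in mitochondria, measured 49.8, 52.0 and 52.3 in irradiated, 43.9, 41.1 and 52.7 in circulating, and 33.8, 28.9 and 37.7 in endogenous libraries (log2 fold change 0.61, SE 0.18, limma adjusted p = 0.150). Mapk8ip3 or Nme3 overlaps 1605 of its 2064 exon bases, so its reads cannot be cleanly assigned. Mrpl16, the counterpart of a bacterial protein near the peptidyl transferase centre, measured 64.0, 71.7 and 72.7 in irradiated, 56.4, 73.7 and 84.4 in circulating, and 43.8, 45.3 and 48.4 in endogenous libraries (log2 fold change 0.59, SE 0.18, limma adjusted p = 0.153). Mrps31 measured 38.6, 43.7 and 42.8 in irradiated, 31.3, 46.1 and 31.6 in circulating, and 23.8, 32.9 and 26.1 in endogenous libraries (log2 fold change 0.59, SE 0.22, limma adjusted p = 0.236). In these 4 genes each irradiated value exceeded each endogenous value, but the differences did not pass the test over all genes. Mrpl48 and Mrpl49 had a fold change below 0. Mrpl48 measured 93.9, 94.8 and 98.3 in irradiated and 99.3, 113 and 94.9 in endogenous libraries (log2 fold change -0.09, SE 0.15), and Mrpl49 78.3, 74.7 and 83.6 against 76.5, 77.1 and 83.2, which overlap almost completely.

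Between circulating and irradiated LSK cells no gene of the 78 passed the test. The median log2 fold change was 0.05, against -0.02 over all tested genes, and 49 of 78 genes were above 0. With limma 0 of 78 were called, where 0.0218% of all tested genes rose and 0.00726% fell, 0.029% in all, and voom weights also gave 0. Mrpl15 was the 1 gene with an unadjusted p under 0.05 (limma adjusted p = 0.376), where 11.4% of all tested genes had one. Circulating values lay wholly above irradiated values in 9 of 78 genes and wholly below in 3, against 7.46% and 9.26% of all tested genes. That count of 9 was 20 without circulating replicate 1 and 17 without circulating replicate 2. Such counts can only stay or rise when a library is left out. Under scaling by library size alone the 9 became 3, with the median of the 78 genes at -0.02 and that of all tested genes at -0.09. The shares of all tested genes given here are for the deposited scaling with all libraries.

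The 4 largest differences between circulating and irradiated cells were in genes with Mrps symbols. Mrps30 differed by -0.79 on the log2 scale (SE 0.47), with the values given above. Mrps24 measured 23.8, 32.1 and 39.4 in circulating and 35.3, 45.2 and 49.2 in irradiated libraries, with endogenous values of 27.95, 28.8 and 32.9 (log2 fold change -0.45, SE 0.23, limma adjusted p = 0.489). Circulating and irradiated ranges of Mrps24 overlapped. Mrps11, the counterpart of bacterial S11, measured 33.0, 16.3 and 36.8 in circulating and 37.2, 35.2 and 37.7 in irradiated libraries (log2 fold change -0.42, SE 0.29, limma adjusted p = 0.606). That difference rested on circulating replicate 2, the library of lowest depth: without it the log2 fold change of Mrps11 was -0.07. Reads over 173 exon bases shared with Mrpl46 cannot be assigned to either gene. Mrps27 was higher in circulating than in irradiated cells in all libraries (log2 fold change 0.41, SE 0.21, limma adjusted p = 0.476). Against the positive median, the next largest were Mrpl14 at -0.23 (SE 0.18) and Mrpl2 at -0.23 (SE 0.18). Mrpl14 measured 42.9, 36.9 and 39.8 in circulating, 41.6, 54.1 and 45.4 in irradiated, and 36.3, 36.02 and 36.5 in endogenous libraries, so circulating and irradiated values overlapped. Mrpl2, the counterpart of a bacterial core protein of the large subunit, measured 71.4, 66.7 and 103 in circulating, 86.9, 98.3 and 92.5 in irradiated, and 58.6, 57.6 and 70.4 in endogenous libraries. Ordered by group mean, 47 genes ran from circulating through irradiated to endogenous cells and 26 from irradiated through circulating to endogenous cells. In 3 genes circulating and in 2 genes irradiated cells had the lowest mean. Circulating and irradiated cells, neighbours in most of these orders, did not differ by the test in any of the 78 genes.

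The small and the large subunit had similar values. Between circulating and endogenous cells the median log2 fold change was 0.39 over the 29 Mrps genes and 0.40 over the 49 Mrpl genes. Of the Mrps genes 2 rose (6.9%) and 19 had groups that did not overlap (65.5%). Of the Mrpl genes 8 rose (16.3%) and 31 did not overlap (63.3%). Of all tested genes 5.33% rose, a share near that of the Mrps genes. In 14.6% of all tested genes circulating values lay wholly above endogenous values. In irradiated against endogenous cells the medians were 0.38 and 0.36, and in circulating against irradiated cells 0.04 and 0.05. The ratio of summed Mrps to summed Mrpl values was 0.512, 0.506 and 0.485 in circulating, 0.514, 0.520 and 0.5001 in irradiated, and 0.505, 0.510 and 0.534 in endogenous libraries. These ranges overlap, with means of 0.501 ± 0.0142, 0.512 ± 0.0104 and 0.516 ± 0.0153 (SD, n = 3). When Mrps30 and Mrps18a were counted with the large subunit, where their products lie, and Mrps36 was left out, the medians of circulating against endogenous cells were 0.39 for both subunits. Split by name, 46 genes named after a bacterial counterpart had a median of 0.40 and 6 that rose. The 31 genes with mitochondrial names had a median of 0.39 and 4 that rose. Names do not follow descent throughout: Mrps18a and Mrps18b are among the 31. Mrps36 is in neither set.

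Levels between genes were compared per kilobase of annotated exon, as the mean deposited value over the 9 libraries divided by exon length. The 78 genes spanned 2.58 to 111.7 with a median of 27.7, against 5.75 over all tested genes with a length, 191 over 70 cytosolic ribosomal protein genes and 96.4 over 79 nuclear respiratory chain genes. The highest levels per kilobase were in Mrpl18 (111.7), Mrpl28 (100.4), Mrpl34 (84.8), Mrpl36 (81.9) and Mrpl12 (76.5), all of the large subunit. Mrpl36 and Mrpl34 encode very small proteins with bacterial counterparts. Mrpl36 measured 82.2, 113 and 132 in circulating, 101.2, 98.1 and 109 in irradiated, and 61.8, 79.4 and 79.2 in endogenous libraries, without overlap between circulating and endogenous values. Mrpl34 measured 55.3, 42.7 and 63.7 in circulating and 43.0, 42.4 and 48.4 in endogenous libraries, which overlap.

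The lowest levels per kilobase were in Mrps30 (2.58), Mrps35 (9.02), Mrps5 (9.04), Mrpl47 (9.19) and Mrps31 (10.7). Mrps5, which encodes the counterpart of a bacterial protein tied to decoding accuracy, measured 66.2, 49.5 and 98.1 in circulating, 66.9, 60.7 and 58.0 in irradiated, and 40.5, 45.3 and 49.9 in endogenous libraries. Its lowest circulating value lay just below its highest endogenous value. Mrpl47 measured 37.9, 40.4 and 62.0 in circulating against 36.6, 27.6 and 27.9 in endogenous libraries, and 1068 of its 4419 exon bases are shared with Actl6a or Ndufb5. Mrps35 measured 79.2, 88.7 and 84.1 in circulating, 90.5, 83.0 and 79.2 in irradiated, and 63.0, 61.6 and 71.3 in endogenous libraries, so both other groups stood above the endogenous one. The order depended on the length used: with the longest coding transcript in place of all exon bases, 2 of the 5 highest (Mrpl18 and Mrpl28) and 3 of the 5 lowest (Mrps30, Mrpl47 and Mrps5) were the same genes.

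**Figure D4:**
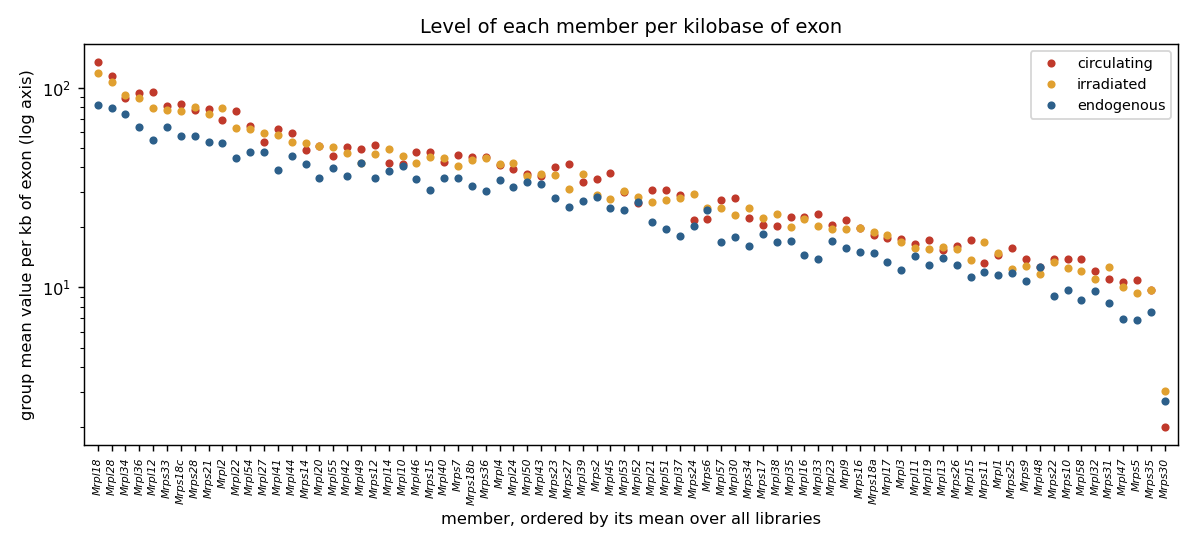
Group mean of the deposited value per kilobase of exon, on a log axis, for each of the 78 genes ordered by their mean over all libraries. Endogenous points lie below the others for most genes, and Mrps30 stands apart at the low end with 2.58 over all libraries.

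Proteins of the mitoribosome that carry other symbols gave similar medians. The list holds Dap3, a GTP-binding protein of the small subunit, Ptcd3, Chchd1 and Aurkaip1 of the small and Gadd45gip1 of the large subunit. All 5 had fold changes above 0. With limma and with voom weights 0 were called in either comparison with endogenous cells (1 and 2 at an unadjusted p under 0.05), with a median log2 fold change of 0.39 in circulating and 0.45 in irradiated against endogenous cells. Dap3 measured 98.6, 77.0 and 121 in circulating, 96.6, 105 and 112 in irradiated, and 63.6, 80.8 and 79.4 in endogenous libraries.

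Other genes of mitochondrial translation were taken as lists, each with 1 fit over all genes. Each count of 0 that follows held with limma and with voom weights, and with sample weights except where given. Of 13 measured mitochondrial translation factors, 1 rose in circulating against endogenous cells and 0 fell (median 0.38), and 0 were called in irradiated cells (3 at an unadjusted p under 0.05, and 2 called with sample weights, Gfm1 and Tsfm), where the median was 0.00 and -0.12 under scaling by library size alone. The one that rose was Mtrf1, a release factor of mitochondrial translation, at 34.1, 45.3 and 42.1 in circulating, 27.5, 26.8 and 33.4 in irradiated, and 29.1, 15.4 and 13.3 in endogenous libraries (log2 fold change 1.10, SE 0.28, limma adjusted p = 0.0392). It was not called under scaling by library size alone or with sample weights. Circulating values lay above all others, and endogenous replicate 1 lay within the irradiated range. Of 20 mitochondrial aminoacyl-tRNA synthetases and related genes, 0 were called in either comparison with endogenous cells (6 and 2 at an unadjusted p under 0.05). The medians were 0.21 and 0.23, and 0.012 and 0.096 under scaling by library size alone. Of 26 genes for mitoribosome assembly and ribosomal RNA modification, 0 were called (2 and 0 at an unadjusted p under 0.05), and the median was -0.09 in circulating cells. In irradiated cells the median was 0.00, and -0.12 under scaling by library size alone. Of 20 genes of mitochondrial DNA transcription and RNA handling, 0 were called (3 and 1 at an unadjusted p under 0.05), with medians of 0.17 and -0.02, the first of which became -0.03 under that scaling. Of 9 regulators of nuclear genes for mitochondria, among them Nrf1, Gabpa, Yy1 and Myc, 0 were called (0 and 0 at an unadjusted p under 0.05, medians -0.00 and -0.04). Myc, a transcription factor known for its effect on ribosome genes, measured 467, 379 and 363 in circulating, 374, 401 and 395 in irradiated, and 432, 363 and 413 in endogenous libraries, which overlap.

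Transcripts from mitochondrial DNA, most of which the mitoribosome translates or is built on, gave lower medians. Of 18 tested, 1 rose in circulating against endogenous cells, mt-Nd1, a complex I subunit, at 2361, 1812 and 2180 against 1359, 1699 and 1498 (log2 fold change 0.48, SE 0.12, limma adjusted p = 0.0358). Their median was 0.06, and -0.14 under scaling by library size alone, and mt-Nd1 was not called under that scaling or with sample weights. In irradiated against endogenous cells 0 of 18 were called by limma or with voom weights (2 at an unadjusted p under 0.05), 17 of 18 lay below 0 and the median was -0.18. The mitoribosome's own RNAs, mt-Rnr1 and mt-Rnr2, were not called: their summed value was 3151, 1802 and 1391 in circulating, 1524, 1636 and 1030 in irradiated, and 1697, 2007 and 2589 in endogenous libraries. Circulating replicate 1 was the highest of these and irradiated replicate 3 the lowest. Nuclear respiratory chain genes stood higher: 40 of 79 rose in circulating cells (median 0.49) and 5 of 79 in irradiated cells (Atp5g3, Atp5mpl, Cox5a, Uqcr11 and Uqcrq, median 0.43). Under scaling by library size alone 13 and 1 rose, and voom weights gave 35 and 9. Sample weights gave 19 and 46. Of all tested genes 5.33% and 0.472% rose in the main fit, and 2.47% and 4.47% with sample weights. The comparison with more calls thus depended on the weighting over all tested genes as well. Of all 13771 tested genes, 340 and 51 rose under scaling by library size alone, and 571 and 72 with voom weights. Of 70 cytosolic ribosomal protein genes, 1 rose in circulating cells, Rps25 (median 0.17, and -0.04 under scaling by library size alone, where it was not called, as with sample weights). In irradiated cells 0 rose by limma or with voom weights (21 at an unadjusted p under 0.05, median 0.25), and 3 with sample weights, Rps2, Rpl29 and Rplp0. None of these lists had a called gene between circulating and irradiated cells.

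**Figure D5:**
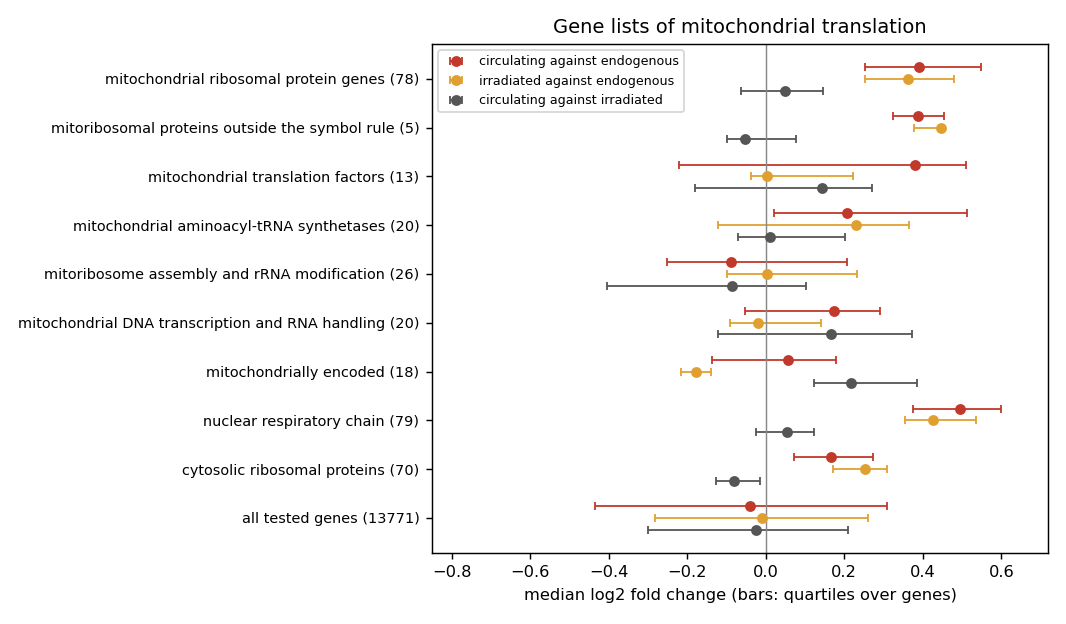
Median log2 fold change (points, with bars from the lower to the upper quartile over genes) of the 78 mitochondrial ribosomal protein genes and of related lists, with the number of tested genes in brackets, in the 3 comparisons. Against endogenous cells the 78 genes have medians of 0.39 and 0.36, below the nuclear respiratory chain (0.49 and 0.43) and above the cytosolic ribosomal proteins (0.17 and 0.25).

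Other transcripts moved along with these genes across the groups, and their part in the result was not tested. The sum of 5 myeloid progenitor genes (Elane, Ctsg, Mpo, Prtn3, Ms4a3) ran from 12800 to 38760 in circulating, 7609 to 16060 in irradiated and 2110 to 3041 in endogenous libraries. All 5 rose in circulating and 4 of 5 in irradiated against endogenous cells. The sum of 6 mitosis genes (Mki67, Birc5, Ccnb2, Plk1, Cdk1, Cdc20) ran from 1306 to 1780, 1218 to 1471 and 717 to 744, and 6 of 6 rose in circulating and 4 of 6 in irradiated cells. Circulating replicate 3, highest in the ribosomal protein genes, was also highest in both sums. B cell transcripts also stood higher in circulating cells. The sum of Cd79a and Cd79b, which encode signalling chains of the B cell receptor, and Ms4a1, which encodes CD20, was 85.8, 208 and 166 in circulating, 85.2, 76.5 and 60.4 in irradiated, and 87.2, 73.8 and 62.4 in endogenous libraries. Circulating replicates 2 and 3 lay above all other libraries, and Cd79a rose against endogenous cells (log2 fold change 2.37, limma adjusted p = 0.0262). The sum of 3 monocyte and macrophage genes was 57.1, 105.5 and 134.5 in circulating libraries. It was 56.6 to 68.6 in irradiated and 52.1 to 66.5 in endogenous libraries. Circulating replicates 2 and 3 again lay above all other libraries. All 3 genes had a fold change above 0 in circulating against endogenous and against irradiated cells, and 0 were called. Sums of neutrophil and erythroid markers overlapped between the groups. Those of neutrophil genes were 996 to 1806 in circulating, 671 to 1705 in irradiated and 898 to 1799 in endogenous libraries. Those of erythroid genes were 18.2 to 87.4, 20.4 to 54.7 and 28.7 to 93.4. Of the endothelial markers Pecam1 was measured, at 74.4 to 82.4 in circulating and 98.0 to 121 in the other libraries.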

How the data were processed

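RNA of sorted LSK cells was isolated with the PicoPure kit, amplified with SMART-Seq v4 and made into libraries with Nextera XT, which does not mark strand, per the labels' protocols. Tools in the submitters' processing notes are CASAVA, RSEM 1.3.1 and limma, with the build mm10. Their roles, the annotation and the scaling were not given in the sources used here. In the deposited table the unit is a normalised signal for 14461 Ensembl genes in 9 columns, all of which were mapped to samples. Estimated counts were recovered from each column's minimum, for depth and for voom weights. Reads from PCR carry no molecular identifiers here, so depth speaks of counting error only.

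Symbols, coordinates and exon lengths came from GENCODE vM21 (GRCm38): 14405 genes matched and 56 did not. The 5 annotated pseudogenes of the members were not among the genes of the table. Exon bases shared with another gene occurred in 33 members, in 18 of them over 10% of the exon length.

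The test was limma-trend (limma 3.58.1, R 4.3.3) with robust moderation on log2(value + 1), all 9 libraries in 1 fit, for 13771 genes with a value of at least 1 in at least 3 libraries. Benjamini-Hochberg adjustment ran over all genes tested, and calls were made under 0.05. The fit was tried on simulated data that gave each gene 1 spread shared by all groups. That trial cannot speak to the unequal spread of the groups described above. Alternatives were a pseudocount of 0.5, no filter, a minimum of 5, scaling by library size or median ratio, sample weights, voom weights, only the groups compared, a replicate block, each library left out, subunits by structure and another member list. Counts of groups that do not overlap were repeated under 2 scalings and without single libraries, an alternative chosen after seeing the data.

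Members named were, per comparison, up to 12 called ones (or the 4 largest changes), up to 5 opposite to the median, the 5 highest and lowest per kilobase, and 7 with a special place in the ribosome. Of other lists, up to 4 called or 3 uncalled genes were named. Genes named beside counts of 5 or fewer were chosen after their values were seen. Members and lists were chosen with earlier results of these data known. Mtrfr was not matched, and Prorp was matched as 1110008L16Rik. Bases of promoters came from RefSeq. One marker gene is not reported here.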

Additional observations from a re-analysis of the deposited data

How the results depend on the processing

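Of the 78 genes, 10 were called between circulating and endogenous cells. The number was 2 under scaling by library size alone, 6 under the median ratio and 2 with sample weights. It was 0 with only the groups compared, and 0 to 20 when single libraries were left out. Of all tested genes 1189 were called in the main fit, 1161 under library size alone and 1157 under the median ratio. This count was 494 with sample weights, 239 with only the groups compared, 257 without endogenous replicate 1 and 2224 without circulating replicate 1. The genes whose groups did not overlap went from 50 to 22 under scaling by library size alone, and to between 50 and 59 without single libraries. Leaving out a library can only keep or raise such a count, so ranges without single libraries, here and below, cannot show a fall. The shares of all tested genes without overlap are given above only for the deposited scaling and all libraries. The median log2 fold change moved to 0.19 under scaling by library size alone, and for irradiated against endogenous cells to 0.23. In that comparison 13 genes were called with sample weights, 8 with only the groups compared and 0 to 1 without single libraries, and 59 to 64 did not overlap. Between circulating and irradiated cells the count that did not overlap was 3 under scaling by library size alone and 9 to 20 without single libraries. Medians without single libraries were 0.34 to 0.46, -0.04 to 0.11 and 0.35 to 0.39 for circulating against endogenous, circulating against irradiated and irradiated against endogenous cells. Small minus large medians were -0.05 to 0.05, -0.06 to -0.00 and -0.01 to 0.05. The sign turned for Mrpl52 (-0.069 to 0.077 without single libraries) and for Mrpl49 (0.00 with sample weights, -0.043 to 0.037 without single libraries). The cause of these moves was not tested. A pseudocount of 0.5 and no filter both left 10 called, a minimum of 5 gave 14 and voom weights 8. Among all genes of each of these fits, 1152, 1140, 1264 and 834 were called in either direction.

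Deviations of same-numbered libraries from their group means had correlations over genes of 0.05, 0.03 and 0.18 for circulating with irradiated libraries. They were -0.01, 0.01 and 0.06 for circulating with endogenous, and 0.08, 0.05 and -0.02 for irradiated with endogenous libraries. Differently numbered libraries gave -0.17 to 0.11, -0.04 to 0.03 and -0.12 to 0.07 in the same order. The labels do not say whether same-numbered libraries are paired. With a replicate block 7, 0 and 0 genes were called in circulating against endogenous, circulating against irradiated and irradiated against endogenous cells. In the first comparison 1147 of all tested genes were then called in either direction, against 1189 in the main fit. Mrps27, Mrpl57, Mrpl28 and Mrps10 were then not called (limma adjusted p 0.0542 to 0.0635), and Mrpl12 was. With 3 libraries per group the smallest change called among the 78 genes was 0.51 log2 units, and the median SE of the others was 0.17.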

Other observations

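Among the genes around the mitoribosome, single libraries stood apart in a few, named here after their values were seen. Lars2, the mitochondrial leucyl-tRNA synthetase, measured 664 in endogenous replicate 3 and 197 to 336 in the other 8 libraries. In circulating replicate 2, the library of lowest depth, Tfb1m, a methyltransferase of mitochondrial ribosomal RNA, measured 5.37 and Mterf4, an assembly factor, 8.15. The other libraries gave 17.1 to 28.7 for Tfb1m and 26.2 to 37.0 for Mterf4. Mrps30 was at its lowest in the same library, at 4.54.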
